A study of Homo sapiens with 6 samples.

Results

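The genes described here encode ligands that A375 melanoma cells can show to T cells and natural killer (NK) cells. They are 4 checkpoint ligands, CD274, CD276, PVR and NECTIN2, and 5 ligands of the activating receptor NKG2D, MICA, MICB, ULBP1, ULBP2 and ULBP3. They were taken from the deposited expression table by gene name, and all 9 were found among its 58735 genes. A375 is an established line of human melanoma cells in which BRAF carries an activating mutation. Its cells were exposed for 6 h to the solvent DMSO (3 libraries) or to CuB (3 libraries), which the series title spells out as cucurbitacin B, a triterpenoid of gourd plants. The dose is uncertain, since the protocol gives 0.2 µM and the library names give 100 nM. Polyadenylated RNA was sequenced, and levels are in FPKM, fragments per kilobase of gene length, relative to a library size set by the authors. Nothing in the labels says that replicates came from separate cultures, so the p-values only reflect how far these samples scatter, and that scatter may be technical.

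Checkpoint ligands restrain lymphocytes. CD274 encodes PD-L1, the ligand of the inhibitory receptor PD-1, and CD276 encodes B7-H3, a B7-family protein common on solid tumours whose receptor is unsettled. PVR (CD155) and NECTIN2 (CD112) are adhesion proteins of the nectin family that bind the activating receptor DNAM-1. Inhibitory receptors compete with DNAM-1 for them: TIGIT and CD96 for PVR, and PVRIG and, more weakly, TIGIT for NECTIN2. The NKG2D ligands are relatives of class I MHC molecules that stressed, infected or transformed cells place on their surface. MICA and MICB are membrane-spanning proteins encoded in the MHC, and the ULBP proteins, of the RAET1 family, are encoded in a cluster on the long arm of chromosome 6. Melanoma cells are known to carry several of these ligands and to shed some of them.

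The promoters of PVR and CD276 are shown first, because these were the members whose mRNA rose with CuB. Each is a RefSeq window on GRCh38.p14 from 250 bases before to 50 bases after the start of transcription, written 5′ to 3′ with matches to the motifs searched in capitals. PVR lies at chr19:44643660-44643959 and CD276 at chr15:73684133-73684432, both on the + strand. CD276 has another window in that table, which is not shown.
PVR: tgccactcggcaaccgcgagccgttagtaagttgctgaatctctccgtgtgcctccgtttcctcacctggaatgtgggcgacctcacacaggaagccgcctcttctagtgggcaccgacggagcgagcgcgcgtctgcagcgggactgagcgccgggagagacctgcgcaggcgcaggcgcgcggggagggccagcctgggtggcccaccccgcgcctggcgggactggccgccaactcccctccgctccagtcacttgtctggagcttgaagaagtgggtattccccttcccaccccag
CD276: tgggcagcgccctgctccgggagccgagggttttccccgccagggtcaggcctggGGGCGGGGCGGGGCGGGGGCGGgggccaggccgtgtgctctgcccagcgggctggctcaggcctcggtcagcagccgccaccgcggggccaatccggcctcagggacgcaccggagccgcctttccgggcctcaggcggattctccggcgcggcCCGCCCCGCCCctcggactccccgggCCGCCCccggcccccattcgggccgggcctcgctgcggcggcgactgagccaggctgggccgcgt
Matches were searched on both strands for TGATGCAA (the composite site of ATF4 and CEBP factors), TGANTCA (AP-1), TGACGTCA (CRE), TTCNNNGAA (STAT), GAANNTTC (the core of a heat shock element), CACGTG (E-box) and CCGCCC (GC box). The PVR window held none of the 7. The CD276 window held 7 GC boxes, some of them overlapping, and was 80.3% G and C. At least 1 GC box was present in 45.0% of 35116 promoter windows of the same length.

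Stretches of 5 other promoters are shown because they carry the matches by which the remaining ligands can be compared. The MICA stretch is at chr6:31403445-31403494 and the MICB stretch at chr6:31497991-31498040, on the + strand. The ULBP2 stretch is at chr6:149941989-149942038 on the + strand and the ULBP3 stretch at chr6:150069101-150069150 on the - strand. The CD274 stretch is at chr9:5450402-5450491 on the + strand.
MICA: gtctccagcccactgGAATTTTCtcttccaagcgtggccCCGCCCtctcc
MICB: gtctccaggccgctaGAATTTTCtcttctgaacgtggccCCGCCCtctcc
ULBP2: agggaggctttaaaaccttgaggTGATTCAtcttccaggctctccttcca
ULBP3: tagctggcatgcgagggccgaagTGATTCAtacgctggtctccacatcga
CD274: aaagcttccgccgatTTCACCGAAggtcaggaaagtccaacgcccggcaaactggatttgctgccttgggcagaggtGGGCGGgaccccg
In MICA and MICB the capitals mark the same heat shock element core followed by a GC box, and 44 of the 50 bases shown are identical. The core was found in 6.77% of all promoter windows. In ULBP2 and ULBP3 the capitals mark TGATTCA, a match to the AP-1 letters that covers the start of transcription, where 7.71% of all windows held such a match anywhere. In CD274 they mark a STAT match (7.66% of windows) and a GC box. NECTIN2 held 3 GC boxes and a CRE (1.85% of windows), and ULBP1 held 2 GC boxes. No member held the ATF4 composite letters or the E-box, which were present in 0.866% and 7.26% of windows. A match is a description of letters in these windows.

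PVR and CD276 mRNA rose with CuB. PVR was at 23.0, 23.4 and 19.6 FPKM in the 3 DMSO libraries and at 35.3, 38.2 and 39.5 FPKM in the 3 CuB libraries. The CuB libraries were all higher than the DMSO libraries, by a gap wider than the spread inside either group. The means were 21.99 ± 2.09 and 37.7 ± 2.14 FPKM, 1.71-fold (errors throughout are SDs over n = 3 libraries). Log2 fold changes were taken on log2(FPKM + 1), where low genes appear to change less than they do. That of PVR was 0.75 (SE 0.0953, 95% interval 0.53 to 0.98, limma adjusted p = 0.00124). CD276 measured 20.9, 27.2 and 19.9 FPKM in the DMSO libraries and 33.9, 36.2 and 38.3 FPKM in the CuB libraries. Its groups did not overlap either, and the highest DMSO library was replicate 2. The means were 22.7 ± 3.95 and 36.1 ± 2.24 FPKM, 1.59-fold (log2 fold change 0.66, SE 0.127, 95% interval 0.36 to 0.96, adjusted p = 0.00685). The values rest on 9502 fragments for PVR and 14786 for CD276 over the 6 libraries.

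NECTIN2, the paralogue of PVR that shares the receptor DNAM-1, did not pass the test. It measured 7.35, 11.2 and 5.86 FPKM in the DMSO libraries and 8.23, 10.6 and 12.8 FPKM in the CuB libraries. The groups overlapped, since DMSO replicate 2 lay above CuB replicates 1 and 2. The means were 8.14 ± 2.75 and 10.5 ± 2.29 FPKM (log2 fold change 0.36, SE 0.234, 95% interval -0.19 to 0.91, adjusted p = 0.264), an interval that includes the change measured for PVR. Without DMSO replicate 2, NECTIN2 passed at a log2 fold change of 0.59 (adjusted p = 0.042), a setting in which 25.9% of all tested genes were called higher. Without DMSO replicate 3 its value was 0.17 (adjusted p = 0.592), and without CuB replicate 3 it was 0.22 (adjusted p = 0.542). The ratio of PVR to NECTIN2 was 3.12, 2.09 and 3.34 with DMSO and 4.29, 3.61 and 3.08 with CuB, and these ranges overlapped.

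CD274 mRNA was low in every library. It measured 0.539, 0.535 and 0.842 FPKM in the DMSO libraries and 1.32, 1.29 and 0.668 FPKM in the CuB libraries, a mean of 0.639 ± 0.176 against 1.09 ± 0.37 FPKM. CuB replicates 1 and 2 were the highest, while CuB replicate 3 lay inside the DMSO range, so the groups overlapped. Its mean over the 6 libraries was 0.867 FPKM, under the minimum of 1 FPKM set for testing. The counts were 34, 36 and 54 fragments with DMSO and 77, 79 and 41 with CuB, a ratio of 1.71 (exact 95% interval 1.36 to 2.16, counting error only). Tested without the minimum, where 8.02% of 32824 genes were called higher, CD274 stood at 0.34 on the log2 scale (SE 0.179, limma adjusted p = 0.289) and did not pass. CD276 mRNA was thus the more abundant B7-family ligand per unit of length, from 23.6 to 57.4 times CD274 across the 6 libraries.

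**Figure D1:**
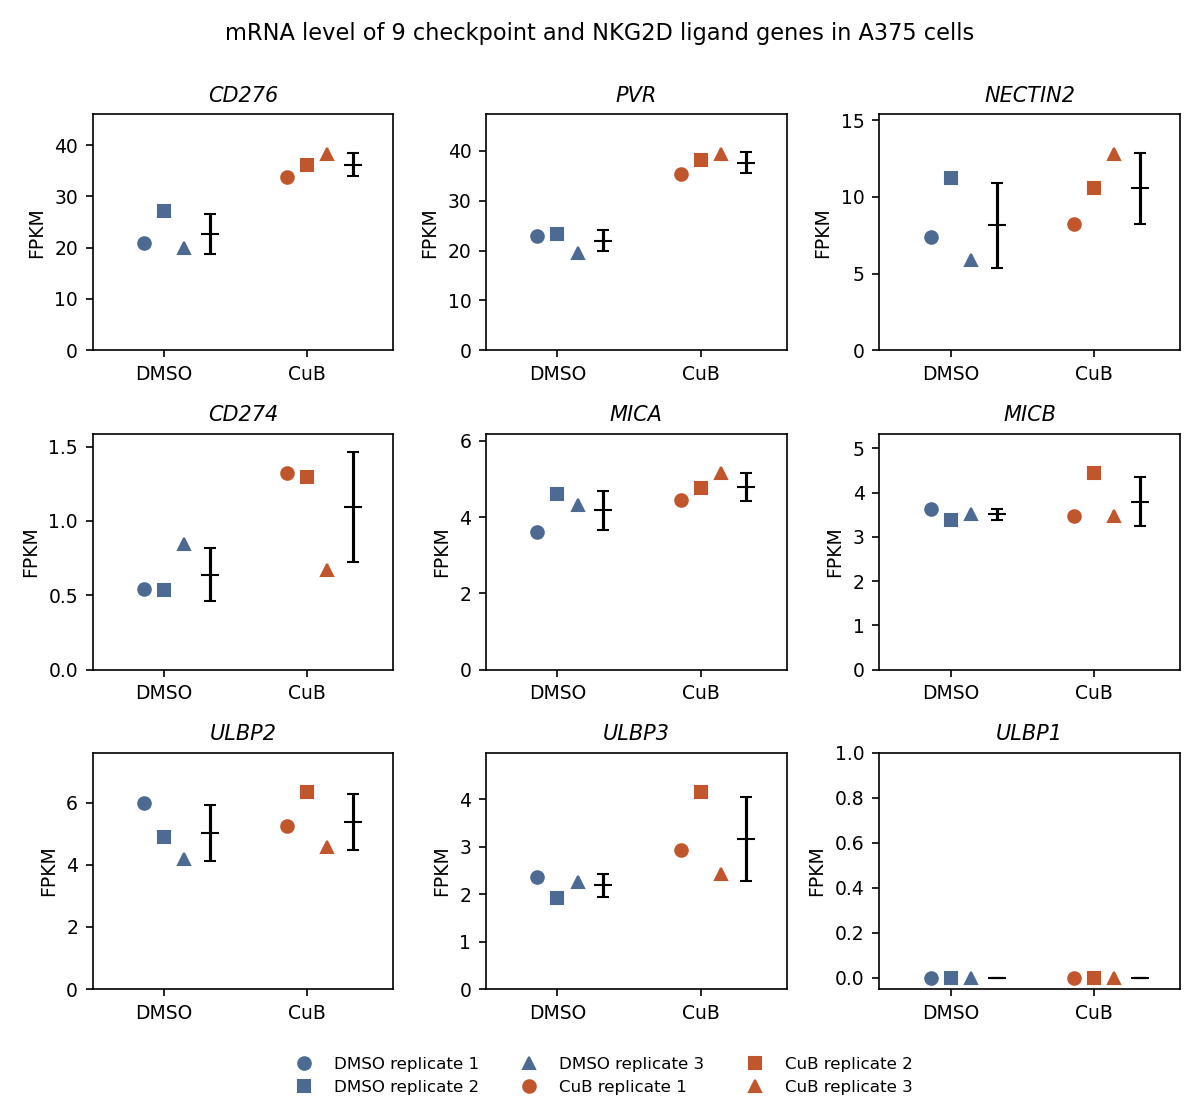
Level in FPKM (vertical axis, from 0, its own scale in each panel) of the 9 ligand genes in each DMSO and CuB library, with the mean and SD of each group beside the points. PVR, CD276 and ULBP3 have all 3 CuB values above all 3 DMSO values, the other detected genes overlap, and ULBP1 is at 0 in all 6 libraries.

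None of the 4 tested NKG2D ligands passed the test. ULBP3 came nearest: it measured 2.37, 1.92 and 2.27 FPKM in the DMSO libraries and 2.93, 4.15 and 2.44 FPKM in the CuB libraries. All CuB values lay above the DMSO values, but CuB replicate 3 did so narrowly and CuB replicate 2 stood far above the other 2. The log2 fold change was 0.37 (SE 0.162, 95% interval -0.01 to 0.75, adjusted p = 0.112), on 240 fragments in all. The adjusted p ranged from 0.0589 to 0.311 over 19 alternative settings.

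MICA measured 3.60, 4.61 and 4.32 FPKM in the DMSO libraries and 4.44, 4.76 and 5.16 FPKM in the CuB libraries. CuB replicate 1 lay between DMSO replicates 2 and 3, so the groups overlapped (log2 fold change 0.16, SE 0.107, 95% interval -0.09 to 0.41, adjusted p = 0.265). The value was 0.081 without DMSO replicate 1 and 0.028 with equal fragment totals. MICB measured 3.63, 3.38 and 3.53 FPKM in the DMSO libraries and 3.48, 4.44 and 3.47 FPKM in the CuB libraries. Apart from CuB replicate 2, all MICB values were between 3.38 and 3.63 FPKM (log2 fold change 0.08, 95% interval -0.17 to 0.34, adjusted p = 0.58). ULBP2 measured 5.99, 4.89 and 4.18 FPKM in the DMSO libraries and 5.23, 6.33 and 4.56 FPKM in the CuB libraries, 2 ranges that largely coincide (log2 fold change 0.08, 95% interval -0.27 to 0.43, adjusted p = 0.684). The sign for MICB and ULBP2 was negative, at -0.048 and -0.054, when libraries were scaled to equal fragment totals. CuB replicate 2 was the highest library for MICB, ULBP2 and ULBP3.

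ULBP1 had 0 fragments in all 6 libraries. A count of 0 allows a level of up to 0.0202 FPKM over the DMSO libraries and 0.0217 FPKM over the CuB libraries (3 fragments per group, counting error only). No fold can be given. The summed level of the 5 NKG2D ligand genes was 15.6, 14.8 and 14.3 FPKM with DMSO and 16.1, 19.7 and 15.6 FPKM with CuB, led by CuB replicate 2.

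Of the 7 members that could be tested, 2 were higher and 0 lower with CuB. Among all 13273 tested genes 22.9% were called higher and 15.6% lower, so 2 of 7 is near the share of all genes. The groups did not overlap, with CuB above, in 3 of the 7, beside 29.8% of all tested genes. The median log2 fold change was 0.36 over the 7 and 0.05 over all tested genes. PVR stood above 91.9% and CD276 above 89.6% of tested genes in log2 fold change, and ULBP2 and MICB stood near the middle, above 52.7% and 52.5%. CD276 and PVR passed in all 20 alternative settings, with log2 fold changes from 0.46 to 0.79 and from 0.56 to 0.80.

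**Figure D2:**
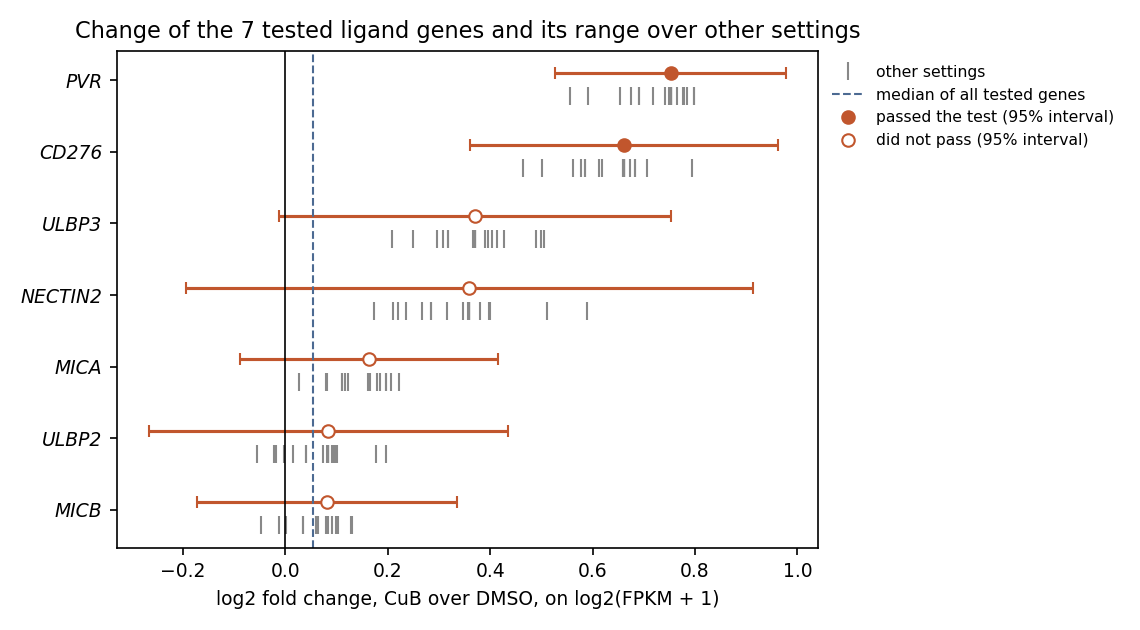
Log2 fold change of CuB over DMSO on log2(FPKM + 1) (horizontal axis) for the 7 tested ligand genes, with limma's 95% interval; filled points passed at an adjusted p under 0.05 and grey ticks are the values under the other settings. PVR (0.75) and CD276 (0.66) have intervals clear of 0 and of the median of all tested genes, and the other 5 intervals include 0.

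By level per unit of length, the order with DMSO was CD276, PVR, NECTIN2, ULBP2, MICA, MICB, ULBP3, CD274 and ULBP1. The ranges over libraries overlapped between CD276 and PVR, between NECTIN2 and ULBP2, between ULBP2 and MICA, and between MICA and MICB. They did not overlap between PVR and NECTIN2, between MICB and ULBP3, or between ULBP3 and CD274. With CuB the order of means began with PVR, followed by CD276, whose ranges again overlapped. NECTIN2 was then clear of ULBP2, and MICB and ULBP3 overlapped. Over all 6 libraries PVR (mean 29.8 FPKM) and CD276 (29.4 FPKM) stood above 88.5% and 88.3% of tested genes, whose median was 6.77 FPKM, and the NKG2D ligands stood below that median, from 2.68 FPKM for ULBP3 to 5.20 FPKM for ULBP2.

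A trend on transcript GC content set the libraries apart, and several members have GC-rich transcripts. In DMSO replicate 2 and CuB replicate 3, genes with a high GC content lay above their group means (r across genes 0.71 and 0.51), and in DMSO replicates 1 and 3 and CuB replicate 1 below them (r -0.38, -0.57 and -0.53). The longest transcript of CD276 has a GC content of 61.0%, that of NECTIN2 59.4% and that of PVR 56.5%. A correction then removed each library's trend on GC content, taken against the mean over all 6 libraries. It therefore also removed any such trend between the groups. The median log2 fold change over all tested genes went from 0.05 to 0.0031. After the correction, the range of CD276 over the DMSO libraries fell from 0.434 to 0.0198 on the log2 scale. That of NECTIN2 went from 0.83 to 0.438, and its groups still overlapped, with DMSO replicate 2 above CuB replicate 1. The DMSO range of PVR went from 0.246 to 0.205 and that of MICA from 0.284 to 0.253. By contrast, the DMSO range grew for ULBP3 (0.21 to 0.4), MICB (0.0796 to 0.102) and, slightly, ULBP2 (0.432 to 0.436). CD276 then had a log2 fold change of 0.58 (adjusted p = 6.27e-05) and PVR one of 0.69 (adjusted p = 9.29e-05), in a setting where 30.3% of all tested genes were called higher. NECTIN2 did not pass (0.28, adjusted p = 0.0915). The groups of ULBP3 overlapped after the correction, with CuB replicate 3 inside the DMSO range. The part of GC content in the uncorrected values was not tested beyond this.

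**Figure D3:**
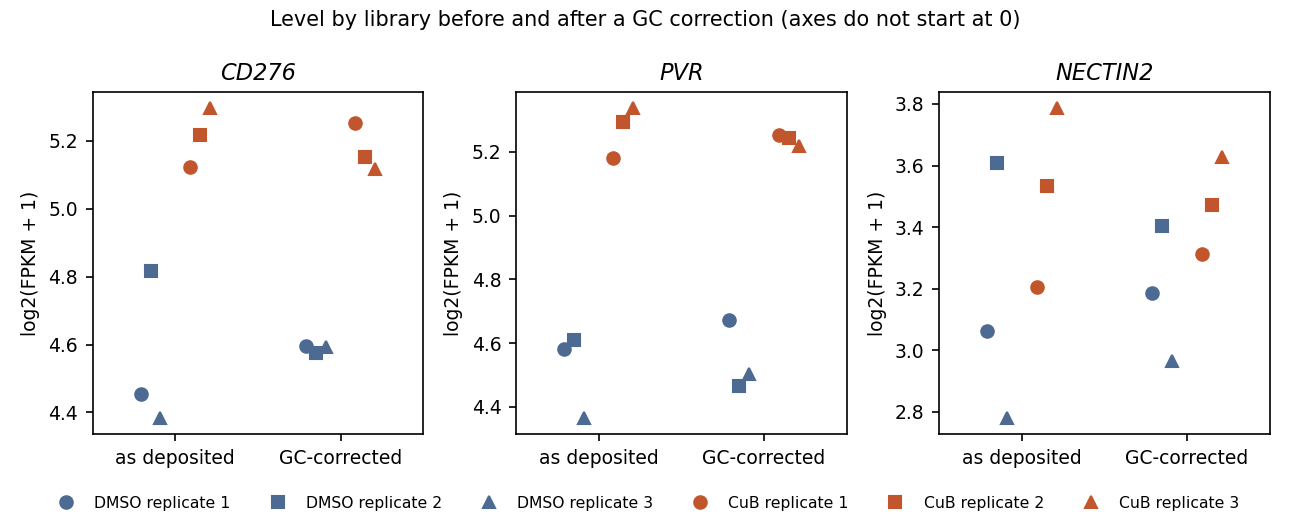
Level of CD276, PVR and NECTIN2 on log2(FPKM + 1) in each library (vertical axes do not start at 0), as deposited and after removal of each library's trend on transcript GC content. The DMSO points of CD276 draw together after the correction, from a range of 0.434 to 0.0198, while those of NECTIN2 keep a range of 0.438. Those of PVR go from a range of 0.246 to 0.205.

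The deposited FPKM were not scaled to fragment totals. Libraries held from 14845976 to 16137093 fragments on genes, and the library size implied by the FPKM was from 1.03 to 1.04 times that total with DMSO and from 0.914 to 0.927 times with CuB. The implied sizes followed a median-of-ratios factor, each library's median ratio to the geometric means of 19223 genes. Implied size over that factor was from 0.996 to 1.005 times its mean over the 6 libraries. Rescaling by this factor left PVR at 0.75 and CD276 at 0.66 on the log2 scale. Scaling to equal fragment totals shifted the median over the tested genes by -0.139 on the log2 scale, to -0.08. PVR was then at 0.59 and CD276 at 0.50, or 0.68 and 0.59 above that median, against 0.70 and 0.61 above it as deposited. Melanoma and lymphocyte markers were checked as well. SOX10, a neural crest factor of melanocytes, was at 198 ± 50.4 and 218 ± 31.1 FPKM in the DMSO and CuB libraries (log2 fold change 0.16) and MITF, the melanocyte master regulator, at 3.96 ± 0.467 and 4.42 ± 0.712 FPKM (0.12), and neither passed. The pigment genes MLANA, PMEL, TYR and DCT had means under 1 FPKM in both groups. S100B fell by 1.84 and S100A1 by 0.98 on the log2 scale, and AXL and NGFR, genes of a dedifferentiated melanoma state, rose by 1.45 and 2.17. VIM, of the same state, had a log2 fold change of 0.22 (adjusted p = 0.114) and did not pass. The 8 T and NK cell markers summed to between 0.649 and 1.29 FPKM with DMSO and between 0.762 and 1.14 FPKM with CuB, with CD2 and PRF1 at 0 and none tested. The 6 myeloid markers summed to at most 2.34 FPKM in any library, with CD163 and FCGR3A at 0, and LYZ fell by 0.58. The 3 B cell markers summed to at most 0.13 FPKM, with MS4A1 at 0, and the 3 endothelial markers to at most 0.548 FPKM. Of 4 keratinocyte markers KRT14 and KRT10 rose by 0.61 and 0.51 and KRT1 was at 0. The summed level of those 4 was 16.0 to 22.1 FPKM with DMSO and 25.9 to 28.4 FPKM with CuB. The part of these genes in the ligand results was not tested. In such bulk RNA fewer cells with a transcript and less of it per cell cannot be told apart.

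Several members lie beside each other. On GRCh38, PVR (ENSG00000073008) spans chromosome 19 from 44643798 to 44663583 and NECTIN2 (ENSG00000130202) from 44846175 to 44889228, 182591 bases further on. Of the 10 genes lying wholly between them, so without any that overlap PVR or NECTIN2, 3 were tested. BCL3, an atypical inhibitor of NF-kB, rose from 6.93 ± 2.06 to 22.1 ± 1.82 FPKM (1.57 on the log2 scale, adjusted p = 0.000795), whereas BCAM, an adhesion protein, was at 3.55 ± 0.724 and 3.23 ± 0.547 FPKM and did not pass. CBLC and CEACAM16 were at 0. PVR shares 121 exonic bases with CEACAM19 on the same strand, and NECTIN2 shares 128 with an antisense gene. Strand cannot separate the bases that PVR shares with CEACAM19, so their fragments may come from either gene. Whether counting used strand is not stated, so this may also hold for the bases that NECTIN2 shares. MICA (ENSG00000204520, chromosome 6 from 31399784 to 31415315) and MICB (ENSG00000204516, 31494881 to 31511124) are separated by 79565 bases. The 2 genes lying wholly in that gap, so without any that overlap MICA or MICB, had group means of at most 0.0351 FPKM. MICA shares 62 exonic bases with HCP5 on the same strand.

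The ULBP cluster on chromosome 6 held a contrast among its own genes. ULBP2 (ENSG00000131015) spans 149942000 to 149949235, ULBP1 (ENSG00000111981) 149964007 to 149973710 and ULBP3 (ENSG00000131019) 150063150 to 150069095. RAET1L (ULBP6), which lies between ULBP1 and ULBP3 and encodes another NKG2D ligand, had 0, 4 and 0 fragments with DMSO and 16, 12 and 11 with CuB. Every CuB library was above every DMSO library, with a ratio of 10.5 (exact 95% interval 3.78 to 40.4, counting error only). Its level with CuB was at most 0.839 FPKM, under the minimum for testing. Without that minimum it rose by 0.65 on the log2 scale (SE 0.11, limma adjusted p = 0.0148). The neighbouring pseudogene RAET1K had 7, 3 and 3 fragments with DMSO and 24, 17 and 12 with CuB (adjusted p = 0.051 without the minimum). RAET1L and RAET1K were singled out after their values were seen. ULBP2 and RAET1L are near-identical in places: 29.4% of the 50-base stretches of ULBP2 transcripts also occur in RAET1L. Of ULBP3 stretches 12.4% and of ULBP1 stretches 6.85% occur in RAET1K. How such fragments were divided between the genes is not given in the sources used here, so the levels of these genes are uncertain. MICA and MICB share 1.89% of MICA's stretches, and CD274, CD276, PVR and NECTIN2 at most 2.12% with any single gene.

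CD274 (ENSG00000120217) lies on chromosome 9 from 5450503 to 5470566 with 7 merged exons, and CD276 (ENSG00000103855) on chromosome 15 from 73683966 to 73714518 with 15. The 3 protein-coding genes whose values over the 6 libraries were nearest to those of PVR, by Euclidean distance of log2(FPKM + 1) centred on each gene's DMSO mean, were SEC16A (0.0926), BRD1 (0.0959) and FAM193A (0.096). These rose by 0.72, 0.79 and 0.74 on the log2 scale. CD276 ranked 149 by the same distance (0.286). No member was called lower, so no such genes were sought for a fall.

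Other nectins and nectin-like proteins moved both ways. Of 7 genes 5 were tested, and 2 rose and 2 fell (median log2 fold change -0.01, against 0.05 over all tested genes). Beside this, 22.9% of all tested genes were called higher and 15.6% lower. NECTIN3, a partner of PVR and NECTIN2 in cell adhesion, rose from 6.47 ± 1.23 to 11.6 ± 1.47 FPKM (0.76 on the log2 scale, adjusted p = 0.00736). NECTIN1 rose by 0.54 (adjusted p = 0.0381). It missed the threshold when DMSO replicate 1 or 3, or CuB replicate 2 or 3, was left out (0.0978 to 0.112 as adjusted p), without the minimum level (0.0973), with the replicate block (0.0518), or under 3 rescalings, to the same FPKM sum, to equal fragment totals and by quantiles (0.0638 to 0.1). CADM1, a ligand of the lymphocyte receptor CRTAM, fell from 7.99 ± 0.56 to 2.999 ± 0.135 FPKM (-1.17 on the log2 scale, adjusted p = 0.000123), and CADM3 fell by 0.50 (adjusted p = 0.0106). NECTIN4, under the minimum level, had 9, 6 and 8 fragments with DMSO and 64, 48 and 37 with CuB, a ratio of 6.97 (exact 95% interval 4.47 to 11.3, counting error only). It passed without the minimum (adjusted p = 0.0143) and was singled out after its values were seen.

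Other B7-family and checkpoint ligands were mostly near 0. Of 14 genes 2 were tested, and 0 rose and 1 fell (median log2 fold change -0.34). The shares over all tested genes were 22.9% higher and 15.6% lower. CD47, the signal that restrains phagocytes, fell from 13.3 ± 1.68 to 8.96 ± 1.13 FPKM (-0.52 on the log2 scale, adjusted p = 0.0158). It missed the threshold when DMSO replicate 1 or 3, or CuB replicate 2 or 3, was left out (0.0512 to 0.0642 as adjusted p). LGALS3, encoding galectin-3, a ligand of LAG-3, was at 10.3 ± 0.329 and 9.05 ± 0.537 FPKM (log2 fold change -0.16, adjusted p = 0.147). It passed as lower when scaled to equal fragment totals (-0.31, adjusted p = 0.0217), to the same FPKM sum (0.0459), by quantiles (0.0262) and with the GC correction (0.0453). PDCD1LG2, which encodes PD-L2, the other PD-1 ligand, had 13 fragments over the DMSO libraries and 19 over the CuB libraries.

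Ligands of other NK cell receptors were led by ICAM1. Of 13 genes 6 were tested, and 2 rose and 1 fell (median log2 fold change 0.05). The shares over all tested genes were 22.9% called higher and 15.6% called lower. ICAM1, the adhesion ligand of LFA-1, rose from 23.5 ± 1.99 to 95.6 ± 4.25 FPKM (1.98 on the log2 scale, adjusted p = 1.3e-05). HLA-E, a ligand of the inhibitory receptor NKG2A and similar in sequence to other HLA genes, rose by 0.48 (adjusted p = 0.036). It did not pass when DMSO replicate 1 or 3, or CuB replicate 2 or 3, was left out (0.0986 to 0.114 as adjusted p), without the minimum level (0.0875) or under the same 3 rescalings (0.0782 to 0.149). CLEC2B, the ligand of NKp80, fell from 4.50 ± 0.721 to 2.23 ± 0.488 FPKM (-0.77 on the log2 scale, adjusted p = 0.00664). BAG6 and NCR3LG1, ligands of NKp30, had log2 fold changes of 0.24 and -0.24 and did not pass. Among co-stimulatory ligands of the TNF family 3 of 6 were tested, and 1 rose and 0 fell (median log2 fold change -0.13). TNFSF9, the ligand of 4-1BB, rose from 3.68 ± 0.61 to 6.85 ± 0.43 FPKM (0.75 on the log2 scale, adjusted p = 0.00271). CD70, the ligand of CD27, was at 30.0 ± 6.97 and 27.1 ± 3.41 FPKM (log2 fold change -0.13, adjusted p = 0.588). It passed as lower with the GC correction (-0.20, adjusted p = 0.024).

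**Figure D4:**
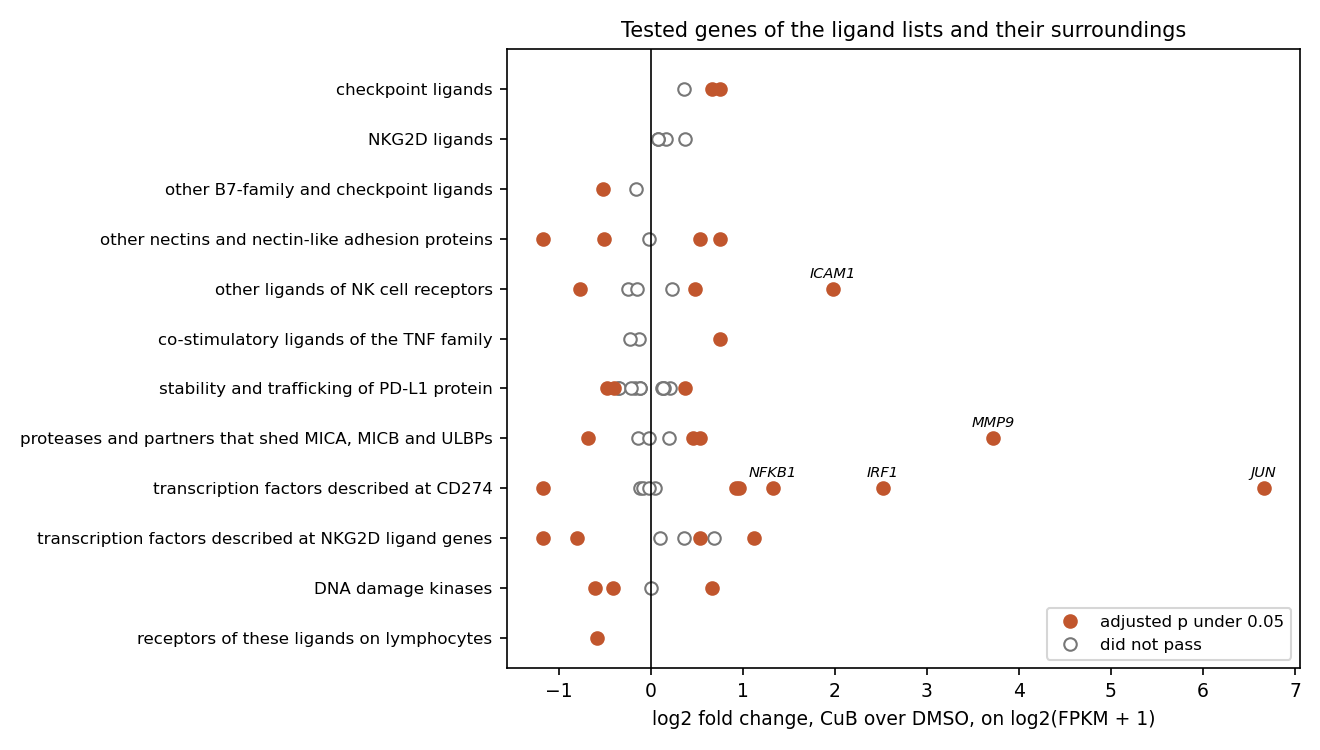
Log2 fold change of CuB over DMSO on log2(FPKM + 1) (horizontal axis) for every tested gene of the 2 ligand groups and of 10 surrounding lists, with filled points at an adjusted p under 0.05. The tested NKG2D ligands lie between 0.08 and 0.37, while JUN (6.66), MMP9 (3.72) and IRF1 (2.52) stand far to the right in the lists of regulators and proteases.

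Genes that act on these ligands after transcription were also measured. Of 14 genes for stability and trafficking of PD-L1 protein 13 were tested, and 1 rose and 2 fell (median log2 fold change -0.12). Among all tested genes 22.9% were called higher and 15.6% lower. Under equal fragment totals 0 of these genes rose and 4 fell, beside 15.2% and 23.6% of all tested genes. With the GC correction 1 rose and 7 fell, beside 30.3% and 27.1% of all tested genes. GSK3B, a kinase that marks PD-L1 for degradation, fell by 0.47 (adjusted p = 0.00641). CMTM4, a membrane protein that protects PD-L1, fell by 0.39 (adjusted p = 0.00831), while its relative CMTM6 was at 33.9 ± 5.79 and 26.4 ± 5.65 FPKM and did not pass. SPOP, a ubiquitin ligase adaptor for PD-L1, rose by 0.37 (adjusted p = 0.00904), but not without CuB replicate 2 (0.0558), by quantiles (0.0659) or under equal fragment totals. Of 7 proteases and partners that release MIC and ULBP proteins from the surface, 3 rose and 1 fell (median log2 fold change 0.19). MMP9, a gelatinase, rose from 0.271 ± 0.0419 to 15.8 ± 1.73 FPKM (3.72 on the log2 scale, adjusted p = 3.82e-06). The sheddases ADAM9 and ADAM17 rose by 0.53 and 0.45 (adjusted p = 0.00681 and 0.00952), ADAM10 had a log2 fold change of -0.14 and did not pass, and MMP2 fell by 0.69 (adjusted p = 0.005).

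Transcription factors described at these genes were measured as mRNA. Of 10 factors described at CD274, 5 rose and 1 fell (median log2 fold change 0.49). Among all tested genes 22.9% were called higher and 15.6% lower. JUN, a subunit of AP-1, averaged 2.37 ± 0.85 FPKM in the DMSO libraries and 334 ± 38.8 FPKM in the CuB libraries. IRF1, which carries interferon signals to CD274, rose from 1.30 ± 0.019 to 12.3 ± 0.762 FPKM, and NFKB1 from 17.6 ± 0.735 to 45.7 ± 2.79 FPKM. MYC fell from 10.6 ± 1.25 to 4.15 ± 0.213 FPKM (-1.17 on the log2 scale, adjusted p = 0.000244). Of 7 factors described at NKG2D ligand genes 2 rose and 2 fell (median log2 fold change 0.36). With the GC correction 4 rose, beside 30.3% of all tested genes, and without DMSO replicate 2 also 4, beside 25.9%. ATF4, described as an activator of ULBP1, rose by 1.12 on the log2 scale and SP3 rose by 0.54, while MYC, also in this list, fell as given above and ULBP1 had 0 fragments in both groups. HSF1, described at MICA and MICB, was at 15.9 ± 4.41 and 20.5 ± 3.54 FPKM and did not pass. Of 4 DNA damage kinases, described upstream of NKG2D ligands, 1 rose and 2 fell (median log2 fold change -0.20). CHEK1 rose by 0.67, ATM fell by 0.60 and CHEK2 fell by 0.41 (adjusted p = 0.00121, 0.00703 and 0.00904).

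Of 14 lymphocyte receptors, some for these ligands and others for different immune ligands, 1 was tested. CD96, a receptor of PVR, averaged 32.7 ± 4.21 FPKM in the DMSO libraries and 21.4 ± 1.58 FPKM in the CuB libraries (log2 fold change -0.59, adjusted p = 0.00719). It passed in all 20 alternative settings. The gene overlaps 5 others in the annotation, the highest of them at a mean of 2.56 FPKM. The other 13 receptors had means over the 6 libraries of at most 0.327 FPKM, and 5 of them had no fragment in any library. LAG3, the highest of these 13, was at 0.255 ± 0.0246 and 0.399 ± 0.242 FPKM. For CD96 all 3 CuB values were below all 3 DMSO values.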

How the data were processed

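The 3 DMSO and 3 CuB libraries were grouped by their labels. The deposited table holds FPKM per gene, which the authors made on GRCh38, as the submitters' processing notes state. Aligner and counter: not given in the sources used here. Multiplying FPKM by gene length gave whole fragments for 100% of values above 0 (within 0.01 fragments), so fragment counts could be recovered. Gene models were those of GENCODE 29, with which all 58735 genes matched.

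Genes that averaged 1 FPKM or more were tested on log2(FPKM + 1) with limma 3.58.1 in R 4.3.3 (trend on mean level, Benjamini-Hochberg adjustment over all tested genes, threshold 0.05). The script was tested on simulated counts that had no GC trend between libraries, so that test cannot say how calls fare under such a trend. Fragment ratios have exact 95% intervals and counts of 0 a limit of 3 fragments, for counting error only. Depth was 14845976 to 16137093 fragments per library. The 20 alternatives changed the pseudocount, filter, scaling, model, GC trend (lowess span 0.3), replicate block or a left-out library, and included limma-voom on the recovered fragments. Promoter windows from RefSeq were matched for 9 of 9 members. Figures used Python 3.11.15 and matplotlib 3.10.9.

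Replicate numbers were not used as pairs: deviations of same-numbered libraries correlated across genes at 0.27, 0.12 and -0.36. The members and the surrounding gene lists were chosen with earlier results of these data known. From each list, up to 4 called genes with the largest absolute log2 fold change were named, or the 2 highest by mean FPKM where fewer than 2 passed, with further genes given for context. Some genes of these lists are not reported here.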

Additional observations from a re-analysis of the deposited data

How the results depend on the processing

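With 3 libraries per group, p-values rest on few samples, and low genes such as CD274 rest on few fragments. Of the 13273 tested genes 5118 were called. The count was 3250 with a minimum mean of 5 FPKM, which tests fewer genes, and leaving out 1 library gave 3262 (without CuB replicate 2) to 5755 (without DMSO replicate 2). With the GC correction it was 7608, and 7191 with the replicate block added. Members called higher were 2 in the fit as reported and 2 to 3 without 1 library, and members called lower were 0 throughout, with 0 lower at an unadjusted p under 0.05. The share of calls that were higher was 59.5% as deposited, 46.7% with the same FPKM sum, 39.3% with equal fragment totals, 47.1% with quantile normalization and 52.8% with the GC correction.

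The log2 fold change of MICB was -0.048 with equal fragment totals and -0.013 (without CuB replicate 2) to 0.13 without 1 library. That of MICA, 0.16 as reported, was 0.028 with equal fragment totals and 0.081 (without DMSO replicate 1) to 0.22 without 1 library. That of NECTIN2, 0.36 as reported, was 0.17 (without DMSO replicate 3) to 0.59 (without DMSO replicate 2). That of ULBP2 was -0.0021 with the same FPKM sum, -0.054 with equal fragment totals and -0.021 (without CuB replicate 2) to 0.20 without 1 library. That of CD70 was -0.23 to 0.051 (without DMSO replicate 2) when 1 library was left out. The cause was not tested, and of these values only that of NECTIN2 without DMSO replicate 2 passed. CD274 and ULBP1 were not tested with a minimum level.

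With the replicate block, which the pairing check did not support, 4443 genes were called, with 2 members higher and 0 lower. Of the named genes, the block ended the call of NECTIN1 (adjusted p = 0.0518).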

Other observations

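PVRIG, the inhibitory receptor of NECTIN2, had 9, 6 and 10 fragments in the DMSO libraries and 1, 0 and 2 in the CuB libraries. All CuB counts were below all DMSO counts, and limma without the minimum level gave a log2 fold change of -0.29 (adjusted p = 0.0263). RAET1G, an NKG2D ligand gene of the ULBP family, had 0, 8 and 1 fragments with DMSO and 0 in all 3 CuB libraries, so its DMSO signal lay mostly in replicate 2. RAET1E, another of that family, had 26, 2 and 16 fragments with DMSO and 13, 7 and 17 with CuB, and the groups overlapped. VSIR, which encodes the checkpoint protein VISTA, had 49, 49 and 50 fragments with DMSO and 44, 69 and 59 with CuB, and the groups overlapped. All 4 were picked with their values in view and were under the minimum level for testing.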
